A study of Rattus norvegicus with 10 samples.

Results

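The results below concern miR-193, miR-193* and miR-365 (rno-miR-193, rno-miR-193* and rno-miR-365 on the array), which are 3 of the 679 rat miRNA probes on the array. The probes were found by name, and all 3 were present with 4 spots each. They were chosen by the background-subtracted intensities of this contrast, in which a large drop of miR-193 was already known, so the difference between the groups is given as a description and nothing is tested on it. The samples were the medial prefrontal cortex (mPFC) of wild-type male Sprague Dawley rats, 2 months old, with 5 rats in the saline group and 5 in the chronic morphine group and 1 array for each. The chronic morphine group received intraperitoneal morphine 2 times a day over 5 days, at 10 mg/kg on day 1, 20 mg/kg on day 2, 30 mg/kg on day 3 and 40 mg/kg on each remaining day, and the saline group received saline on the same schedule. Hy3-labeled total RNA was hybridized to a miRCURY LNA array, a slide of capture probes in which locked nucleotides tighten the binding of short RNAs. Every difference below is between these 2 sets of arrays, from which the treatment cannot be told apart if the sets also differed in some other way. In tissue RNA, fewer cells of a type and less RNA per cell cannot be told apart either.

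A miRNA is cut from a hairpin transcript. One arm (the guide) is loaded into an Argonaute protein and pairs with messenger RNAs mainly through its seed, bases 2 to 8, whereas the opposite arm, marked with a star in older names, is usually degraded. miR-193 and miR-365 lie side by side in mammalian genomes and can be transcribed together. A related pair, miR-193b and miR-365, has been linked to brown fat cell formation in mice. miR-193 has been reported to act on KIT and MCL1 messages in human cells, and miR-365 has been linked to morphine tolerance in rat spinal cord through β-arrestin 2.

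All 3 members matched a mature sequence in the RefSeq table of the GRCr8 rat genome, where the older names correspond to the arms shown here. The sequences show that the members do not share a seed, which is in capitals.
miR-193 (miR-193a-3p): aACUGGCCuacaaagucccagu
miR-193* (miR-193a-5p): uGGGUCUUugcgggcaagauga
miR-365 (miR-365-3p): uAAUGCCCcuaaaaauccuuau
The mature miR-193 is at chr10:65170370-65170391, miR-193* at chr10:65170336-65170357 and miR-365 at chr10:65184271-65184292, all on the plus strand. miR-193 and miR-193* are the 2 arms of the Mir193 hairpin, and the Mir365b hairpin begins 13814 bases downstream. The gene table holds 0 genes wholly between the hairpins, and both lie within the span of the protein-coding gene Faul2. Spans alone do not show whether that position is exonic or intronic.

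Among the 724 mature miRNAs of the table, 0 others had the seed of miR-193* or of miR-365, and 1 other, miR-193b-3p, had the seed of miR-193. This paralogue is encoded by Mir193b at chr10:1824994-1825012 and is shown because it resembles miR-193 beyond the seed.
miR-193b-3p: aACUGGCCcacaaaguccc
Over 19 aligned bases it was identical to miR-193 at 18, with the substitution U9C (miR-193 base, position from the 5′ end, miR-193b base). miR-193b was not among the named rat probes. Whether the miR-193 probe also captures miR-193b was not tested.

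The signal of miR-193 was lower on every chronic morphine array than on every saline array. The background-subtracted intensity (the mean of 4 spots) was scaled by the median of 120 rat miRNA probes detected throughout (intensity of 30 or more on all 10 arrays). The scaled value of miR-193 was 773, 1298, 846, 2560.2 and 1317 on saline arrays 1 to 5. On chronic morphine arrays 1 to 5 it was 28.1, -42.5, 182, 85.1 and 173. Saline array 4 was the brightest and chronic morphine array 2 the dimmest, below its own local background, and the groups did not overlap. The mean was 1359 ± 717 for saline and 85.2 ± 95.8 for chronic morphine (SD, n = 5 per group).

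With values below 30 set to 30, the mean log2 intensity of miR-193 was 10.27 for saline and 6.23 for chronic morphine. The log2 fold change was -4.04 (standard error 0.62 from the limma fit over all tested probes), which is a 16.4-fold lower signal. miR-193 reached 30 on 4 of 5 chronic morphine arrays before scaling, and 2 arrays of that group were at the floor of 30 after it, so that this size depends on the floor and is not a bound. It was the fourth largest fall among the 301 probes that reached 30 on at least 5 arrays. The median log2 fold change of those 301 probes was 0.45, and relative to it miR-193 was at -4.48.

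**Figure D1:**
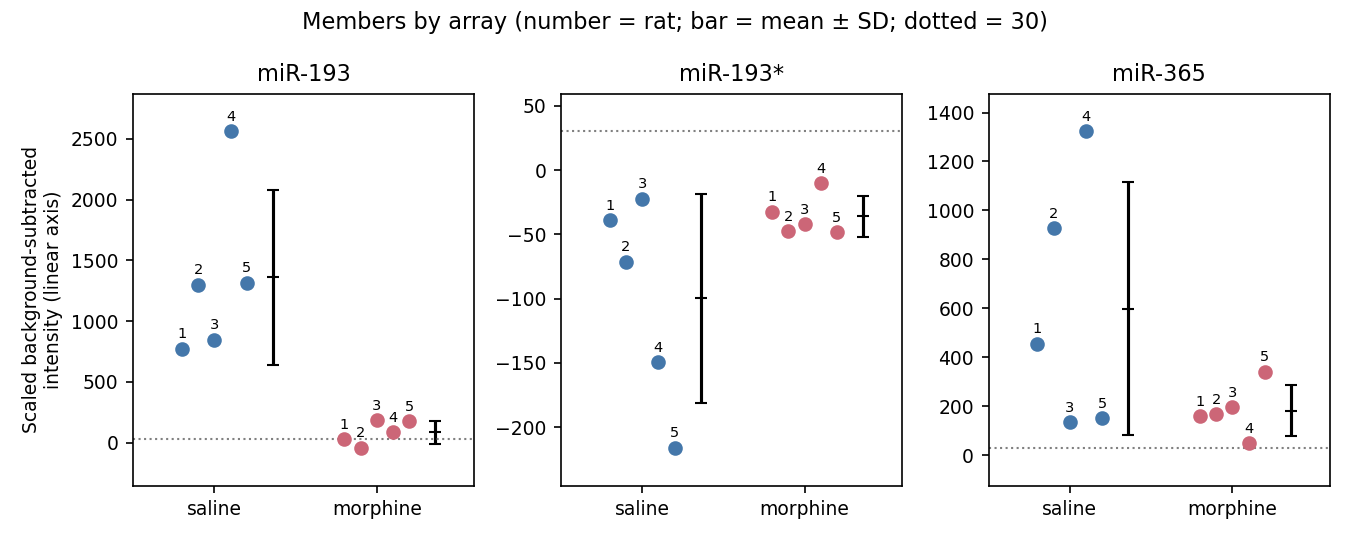
Scaled background-subtracted intensity (linear axis, intensity units) of miR-193, miR-193* and miR-365 on each array, numbered by rat, with the group mean and SD as a bar (n = 5 per group) and 30 as a dotted line. For miR-193 the saline arrays ran from 773 to 2560.2 and the chronic morphine arrays from -42.5 to 182, for miR-193* every array was below 0, and for miR-365 the groups overlapped.

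The array values of miR-193 above are means of its single spots, so the spots are no separate check of its fall. All 20 saline spots lay between 278 and 3511, above all 20 chronic morphine spots, which lay between -82 and 192. The 4 spots of a probe form 2 pairs, 1 on each side of the slide as its block numbers divide it (lower-numbered blocks first), and on some saline arrays the pairs differed. On saline array 4 the first pair read 590 and 1043 and the other pair 3511 and 3082, a 4.04-fold difference between the pair means that 20 of the 120 reference probes matched or exceeded on that array. On saline array 3 the first pair was 4.16-fold brighter, which 4 of the 120 matched or exceeded. From the first pair alone the log2 fold change of miR-193 was -3.96 (standard error 0.57), and from the other pair alone -3.94 (standard error 0.81). Spots of 1 array share the RNA of 1 rat and are no replicates of the group.

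**Figure D2:**
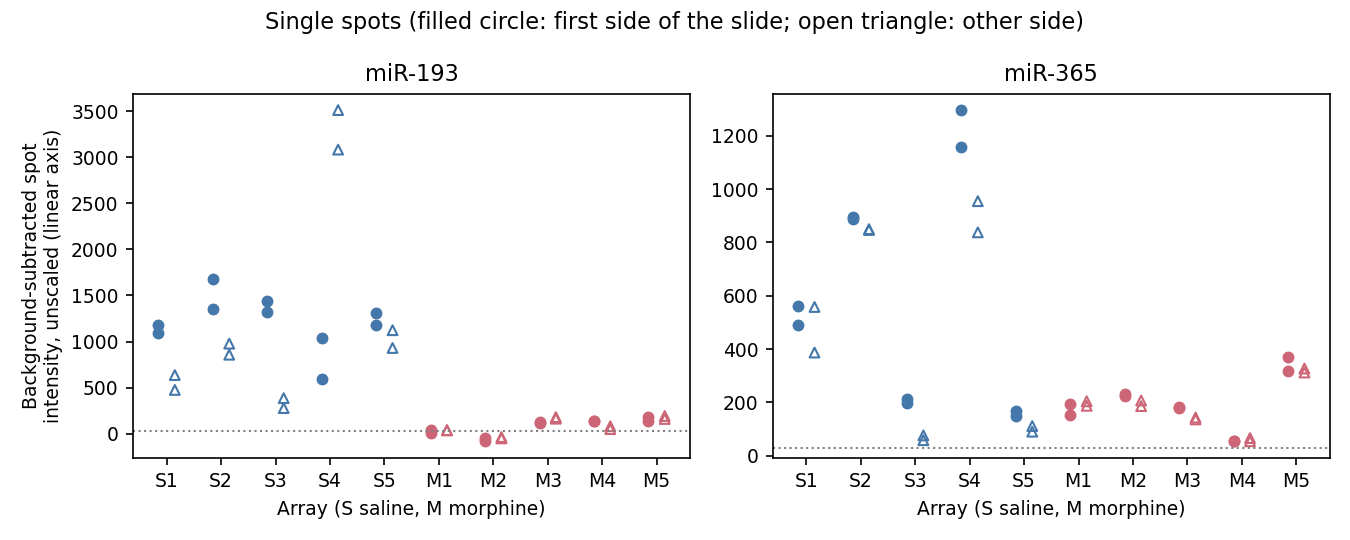
Unscaled background-subtracted intensity (linear axis, intensity units) of each spot of miR-193 and miR-365 on the 5 saline (S) and 5 chronic morphine (M) arrays, with filled circles for the pair on the first side of the slide and open triangles for the pair on the other side. The saline spots of miR-193 all lie above its chronic morphine spots, and the pairs stand apart on saline arrays 3 and 4.

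miR-193*, the opposite arm of the same hairpin, was not detected. Its foreground intensity was 70.3, 116, 60.0, 124 and 170 (169.75 before rounding) on saline arrays 1 to 5. It was 91.3, 75.5, 62.8, 51.8 and 74.3 on chronic morphine arrays 1 to 5. All 40 spots lay below their local background, 0 of 10 arrays reached 30, and 2 to 6 of the 7 negative-control probes were as bright or brighter on each array. No fold change is given for this arm, and 210 of the 679 rat miRNA probes were likewise below 30 on all arrays. The scaled values, -99.7 ± 81.3 in the saline group and -36.1 ± 15.8 in the chronic morphine group (SD, n = 5 per group), are therefore differences between foreground and background and not levels of the miRNA. Hence, the difference between the groups could be described for 1 arm of Mir193 and not for the other.

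miR-365 was detected on all 10 arrays, and its groups overlapped. Its background-subtracted intensity before scaling was 499, 871, 137, 1063 and 130 (129.75 before rounding) on saline arrays 1 to 5. On chronic morphine arrays 1 to 5 it was 185, 212, 160 (159.5 before rounding), 57.3 and 331. Saline arrays 1, 2 and 4 lay above all chronic morphine arrays, whereas saline arrays 3 and 5 lay among them. Scaled, it was 598 ± 517 for saline and 182 ± 105 for chronic morphine (SD, n = 5 per group), and the log2 fold change was -1.41 (standard error 0.73), or 2.66-fold lower.

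The saline arrays differed among themselves for miR-365, with a 9.81-fold range from the dimmest to the brightest, against 3.31-fold for miR-193. Within the saline group the SD of log2 intensity was 1.49 for miR-365, and 49 of the 301 tested probes had a larger one (median 0.83). For miR-193 it was 0.68. In the chronic morphine group it was 1.02 for miR-365 and 1.29 for miR-193, where the median of the tested probes was 0.98. On saline array 3 the first pair of miR-365 spots was 3.07-fold brighter than the other pair, the same side of the slide as for miR-193 on that array, whereas on saline array 4 the brighter pair was the first for miR-365 and the other for miR-193. From either pair alone the log2 fold change of miR-365 was -1.43 or -1.39.

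Of the 3 members, 2 were bright enough to be tested in the fit over all probes and 1 was called lower (limma, adjusted p under 0.05), the guide miR-193. In that fit 44.2% of the 301 probes were called in either direction and 11.6% were called lower. The groups did not overlap, with morphine lower, for 8.31% of the probes and for the same 1 member. As the members were chosen with this contrast known, nothing is read from these counts. Over 26 alternatives, 10 of which left out 1 array, the log2 fold change of miR-193 was between -5.11 and -2.66. Over 27 alternatives, with the same 10 among them, that of miR-365 was between -2.53 and -0.99. Without those 10 it was between -2.53 and -1.20. The lowest 3 values of miR-365 came from quantile normalization (-2.41), cyclic loess (-2.38) and scaling over all 301 tested probes (-2.53), and these 3 moved the median of the tested probes from 0.45 to -0.25, -0.27 and -0.46. Relative to that median, miR-365 was at -1.86 with the scaling used here and at -2.16, -2.10 and -2.07 with these 3. They called 16.3%, 17.9% and 22.9% of probes lower, each time with miR-365 among them. The split of 98 higher and 35 lower calls became 69 and 49, 46 and 54, and 65 and 69. With the normexp background correction the split was 45 and 50.

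**Figure D3:**
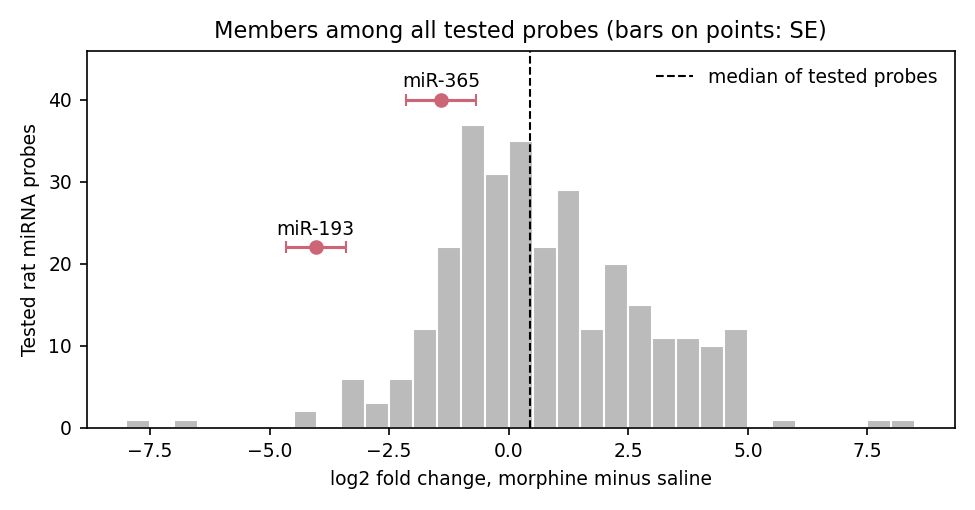
Histogram of the log2 fold change (morphine minus saline) of the 301 tested rat miRNA probes, with the number of probes on the y axis for the bars only. The points mark miR-193 at -4.04 and miR-365 at -1.41 with their standard errors, and the dashed line marks the median of 0.45.

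**Figure D4:**
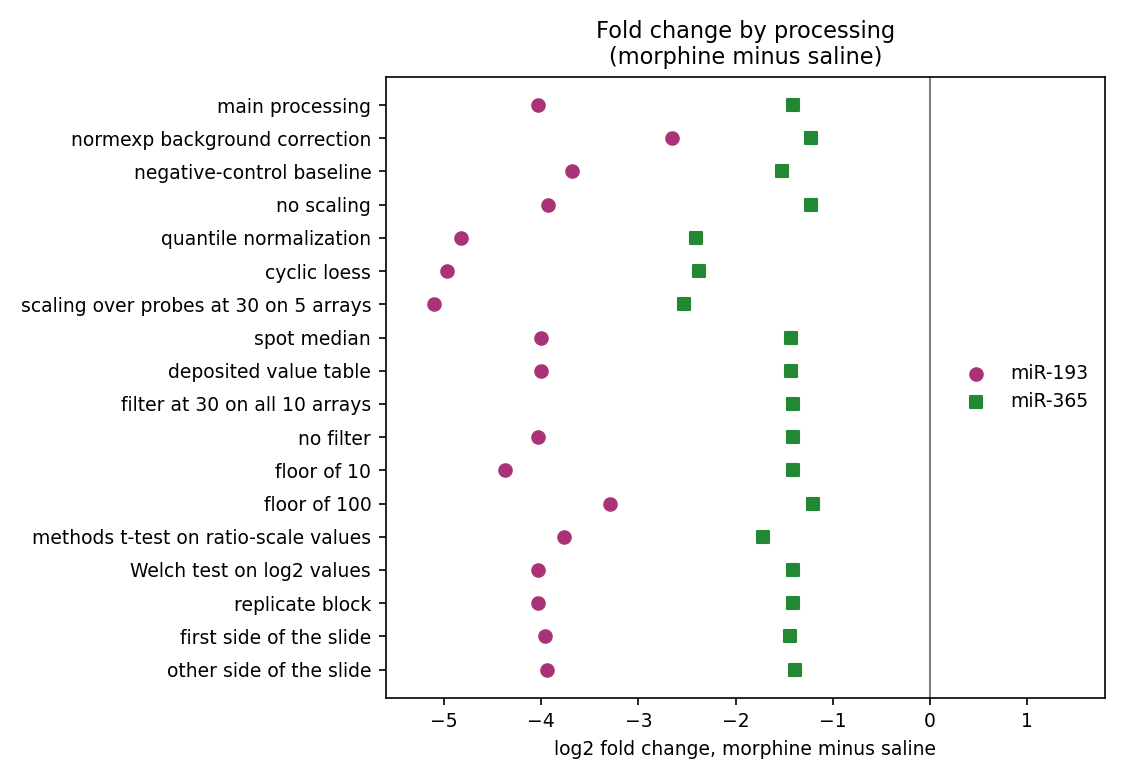
Log2 fold change (morphine minus saline) of miR-193 (circles) and miR-365 (squares) with the processing used here and under each alternative other than a left-out array. All values lie below 0, from -5.11 to -2.66 for miR-193 and from -2.53 to -1.20 for miR-365.

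The local background under the member spots overlapped between the groups. At the miR-193 spots it was 89.3 to 357 (median 207) for saline and 60.8 to 145 (median 126) for chronic morphine (p = 0.111 in a two-sided exact permutation test, n = 5 per group). At the miR-193* and miR-365 spots p was 0.135 and 0.127 in the same exact test, and all 3 adjusted p-values were 0.135 (Benjamini-Hochberg over 3 comparisons). The 3 comparisons use the same arrays and nearly the same backgrounds, so they are not independent. They do not show that the backgrounds were alike, as the mean at the miR-193 spots was 207 for saline and 113 for chronic morphine. The part of the background in the results was not tested beyond the alternatives that replace it. The mean foreground of miR-193, with no background taken off, was 946 to 2320 (2319.75 before rounding) for saline and 91.0 to 294 for chronic morphine. The foreground is part of the values on which miR-193 was chosen, so this is a description and no separate check.

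On the floored log2 scale, miR-193 and miR-365 did not follow each other closely from rat to rat. After the group means were taken off, Pearson's correlation of their log2 values over the 10 arrays was 0.36. By this measure 111 probes resembled miR-193 more closely than miR-365 did (rank 112). In likeness to miR-365, miR-193 had rank 68. The probes whose deviations were most like those of miR-193 were miR-328b-3p, miR-324-5p and miR-330* (r = 0.88, 0.87 and 0.87 over 10 arrays). All of these were higher in the chronic morphine group, with log2 fold changes of 3.45, 2.34 and 2.50. For miR-365 they were miR-26a, let-7a and miR-27a (r = 0.97, 0.96 and 0.94). These correlations are descriptions over arrays that share the scaling and the hybridization. miR-193 was at the floor on chronic morphine arrays 1 and 2, which limits its deviations there. A correlation over 10 arrays is also known only loosely.

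With the group difference left in, the log2 values most like those of miR-193 over the 10 arrays were those of miR-21, miR-199a-5p, miR-30c-1*, miR-152 and miR-31 (r = 0.94, 0.93, 0.89, 0.88 and 0.88). Each of these 5 fell in the chronic morphine group. Their log2 fold changes ran from -7.63 for miR-199a-5p, a miRNA of connective tissue cells, to -2.23 for miR-31. As miR-193 itself fell strongly, this way of choosing favors probes that fell, so nothing is read from their direction. For miR-365 the most similar probes were miR-27a, miR-27b, miR-3573-3p, miR-21 and miR-23b (r = 0.88, 0.82, 0.77, 0.75 and 0.73). Of these only miR-21 was called lower. miR-27a, miR-27b and miR-23b belong to a pair of clusters found in many tissues, and their log2 fold changes were -0.65, -0.55 and -0.17.

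Some markers of connective tissue and vessel wall were lower along with miR-193, whereas the tested markers of neurons, oligodendrocytes and blood were higher. A marker below 30 on all 5 arrays of a group could be tested only if all 5 arrays of the other group reached 30. The direction of such a marker was fixed by that filter, and nothing is read from it. These were miR-9, miR-128, miR-132, miR-137, miR-153, miR-218a, miR-338, miR-144, miR-142-3p and miR-142-5p (higher) and miR-199a-3p (lower). The 7 connective tissue and vessel wall markers were all tested. Of these, 4 fell (miR-21, miR-214 and both arms of miR-199a) and 0 rose. The other 3 (miR-143, miR-145 and miR-10b) were not called by limma at an adjusted p under 0.05. Over all 301 tested probes, 32.6% rose and 11.6% fell, which are the shares to set beside each count in this paragraph. The 7 markers had a median log2 fold change of -2.52. Their summed scaled intensity was 11681 to 42702 on the saline arrays and 1471 to 5129 on the chronic morphine arrays. Of the 4 skeletal muscle markers, 2 were tested and 1 fell (miR-133b), and the summed intensity was 77.7 to 1695 for saline and 27.6 to 194 for chronic morphine. All 3 oligodendrocyte markers were below 30 on all 5 saline arrays. The 1 that was tested, miR-338, rose (fitted log2 fold change 3.68, its saline arrays being at the floor). The summed oligodendrocyte intensity was 177 to 1720 (1719.92 before rounding) for chronic morphine. Blood and immune markers rose for 5 of 5 tested (summed intensity 28.3 to 221 for saline and 1421 to 8547 for chronic morphine), whereas the liver marker miR-122 was below 30 on every array. The labeled tissue is rich in neurons, yet 8 of 11 neuron markers were below 30 on all 5 saline arrays, miR-9 and miR-128 included. All 9 neuron markers that were tested rose, and the summed neuron intensity was 596 to 1496 there against 36052 to 119345 on the chronic morphine arrays. Epithelial markers fell for 1 of 3 tested (miR-200c). The part of these cell types in the result for miR-193 was not tested.

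Of 19 miRNAs listed as linked to brown and beige fat, 17 had a probe of exactly that name and 11 were tested. Of these, 5 rose, 1 fell and 5 were not called by limma. Over all tested probes 32.6% rose and 11.6% fell, so nothing is read from these counts. The median log2 fold change of the list was -0.48, against 0.45 over all tested probes. miR-328 is not in these counts, as 0 probes had exactly that name, but miR-328a and miR-328b-3p were tested and both rose (log2 fold changes of 2.88 and 3.45). miR-30b-5p and miR-30c, of a family that promotes brown fat genes in mice, rose by 4.98 and 3.32 on the log2 scale (adjusted p = 6.74e-05 and 0.000984 in limma), and the former reached 30 on 2 of 5 saline arrays. miR-133b, a muscle miRNA whose family represses the brown fat regulator Prdm16, fell (-1.91, limma, adjusted p = 0.00446) and reached 30 on 1 of 5 chronic morphine arrays.

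Of 24 miRNAs linked to opioid receptors or opioid tolerance beside miR-365, 18 were tested, of which 7 rose, 1 fell and 10 were not called by limma, where 32.6% of all tested probes rose and 11.6% fell. The median log2 fold change of the list was 1.59, against 0.45 over all tested probes. Of the miRNAs that rose, miR-124 and miR-132 are also on the neuron list and miR-338 is also on the oligodendrocyte list. Their rises are therefore the same as those counted above. Neuronal miR-124 rose from a scaled intensity of 956 ± 328 to 51449 ± 16345 (SD, n = 5 per group; limma, adjusted p = 8.33e-07). miR-132, which neuronal activity induces, was below 30 on all saline arrays and had 852 ± 573 in the chronic morphine group (SD, n = 5). As for miR-338, the filter fixed the direction of miR-132, so no p is given. miR-133b, which the brown fat list also holds, was the 1 that fell.

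A pair of probes outside the 3 members, named after their values were seen, belongs to the same locus. miR-365*, the opposite arm of Mir365b, reached 30 on 4 of 5 saline arrays and 1 of 5 chronic morphine arrays. Its log2 fold change was 0.15 (standard error 0.81). That value depends on chronic morphine array 4, at 9.34 on the log2 scale, as the other arrays of that group were at the floor. On array 4 the spots were bright on 1 side of the slide only (1385 and 1530 against 67 and 61). miR-3549 is transcribed from the strand opposite Mir193, and all its 19 bases are complementary to bases 2 to 20 of miR-193*, shown above.
miR-3549: aUCUUGCCcgcaaagaccc
It lies at chr10:65170337-65170355 on the minus strand and reached 30 on 1 of 5 arrays in each group, too few for the fit.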

How the data were processed

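Per the labels and the methods, the authors used a GenePix scanner and deposited, for each spot, the foreground and the background-subtracted intensity on a linear scale, with no scaling between arrays. How the local background was estimated is not given in the sources used here. The deposited value table equals the spot median (35410 values within 1e-06).

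Here the spots of a probe were averaged. Each array was scaled by a factor (807 to 1281), the median of 120 rat probes that reached 30 on every array, taken relative to the geometric mean of all 10 factors. Values under 30 were raised to 30 before log2 was taken. The fit covered 301 rat probes that reached 30 on 5 or more arrays before scaling, and was made with limma 3.58.1 in R 4.3.3 (two-sided, Benjamini-Hochberg). Python 3.11.15, SciPy 1.17.1 and pandas 2.3.3 were used otherwise. Precision is limited by the number of arrays. The sources used here name no slide or scan date, so batches were not examined.

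The members, lists and most tests were chosen with earlier results of these data known. Named were the members, the probes most like them by correlation (5 with the group difference, 3 without), and the 2 probes with the smallest p on each list. miR-365*, miR-3549 and the remaining markers were named after their values were seen. Alternatives changed the background, scaling, spots, filter, floor and test, added a replicate block, or left out 1 array.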

Additional observations from a re-analysis of the deposited data

Results flagged for a closer look

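For 6 values the highest or lowest array of a group stood apart from the other 4 (gap over range above 0.71), all on the 2 probes of the locus that are not members. Chance alone flags about 1 in 20 groups, but this share does not apply to the 3 values on the log2 scale, where the floor made the other 4 arrays identical. miR-365* had a scaled intensity of 648 on chronic morphine array 4 (9.34 on the log2 scale), where the other 4 arrays of the group were below 0, and of -169.9 on saline array 4. On chronic morphine array 4 its spots read 67 and 61 on the first side of the slide and 1385 and 1530 on the other. miR-3549 had a log2 value of 7.39 on saline array 3, where the other saline arrays were at the floor (gap over range 0.58 before the floor was set), and a scaled intensity of 77.9 (6.28 on the log2 scale) on chronic morphine array 4.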

How the results depend on the processing

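The members were chosen on this contrast, so their values under the alternatives are descriptions of the same arrays and no support. The log2 fold change of miR-193 was below 0 under all 26 alternatives that gave a value. The filter at 30 on all 10 arrays gave none, as miR-193 does not pass it. Not all of these are separate checks. The Welch t-test, the replicate block and dropping the filter cannot move the fold change, and the spot median and the deposited value table are the same values. The log2 fold change of miR-365 was -2.41 with quantile normalization, -2.38 with cyclic loess and -2.53 with scaling over the 301 tested probes. Under these 3 alternatives, and no others, miR-365 was called lower. Leaving out 1 array gave -4.35 to -3.70 for miR-193, -1.81 to -0.99 for miR-365 and 102 to 135 calls in place of 133. Calls over all probes numbered 33 with the filter at 30 on all 10 arrays, where only 120 probes were tested, and 60 with the methods' t-test after Benjamini-Hochberg adjustment (126 at over 2-fold and an unadjusted p under 0.05). With the replicate number as a block there were 107 calls, -4.04 for miR-193 and -1.41 for miR-365. Same-numbered rats share only a number (r of their deviations -0.40 to 0.05). miR-193* reached 30 on 0 arrays in all 5 alternatives in which detection could be counted. The values from each side of the slide were added after seeing the data. Signals near the local background limit miR-193 in the chronic morphine group and miR-193* throughout.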
